A study of Mus musculus with 4 samples.

Results

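The enzymes described here attach glutathione, glucuronic acid or sulphate to drugs, hormones and reactive metabolites. The members were taken by symbol: glutathione S-transferases (Gsta, Gstk, Gstm, Gsto, Gstp, Gstt, Gstz and the membrane-bound Mgst), UDP-glucuronosyltransferases (Ugt1a, Ugt2a, Ugt2b, Ugt3a) and sulphotransferases (Sult), with pseudogenes left out. This gave 56 of the 29247 genes in the count table, namely 25 Gst and Mgst, 18 Ugt and 13 Sult genes. No expression value entered the choice.

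RNA was sequenced from macrophages sorted by flow cytometry out of the livers of C57BL6J mice aged 8 weeks. The APAP group holds 3 libraries of Cxcr4+ macrophages from mice killed 72 h after acetaminophen (APAP, 300 mg/kg in saline, intraperitoneal), a drug that destroys hepatocytes at high doses. The control group is 1 library of macrophages, with no Cxcr4 sort and no vehicle named for it in the labels. APAP and the Cxcr4 sort therefore cannot be told apart, and the labels do not say whether the 3 APAP libraries are separate animals. The p-values then cover only the scatter among these libraries, which may be technical. The APAP columns carry no replicate number and are called the first, the second and the third as they stand in the table.

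In hepatocytes, APAP is cleared mainly by glucuronidation and sulphation. The remainder is oxidised by cytochrome P450 to a reactive quinone imine that glutathione traps, either without a catalyst or with the help of glutathione S-transferases. Most genes of these families are known for high expression in hepatocytes, whereas Gstm1, Gstp1, Gsto1 and Mgst1 are known from many cell types, leukocytes included.

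Total counts were 48282283, 52043418 and 56702837 in the 3 APAP Cxcr4+ libraries and 49950909 in control macrophages. The 8 macrophage markers were present in every library, and their summed level was 15862 to 18471 CPM in the APAP libraries, against 18868 CPM in the control (CPM, counts scaled to the size of the library). Of these, Adgre1, Cd68, Fcgr1 and Cd14 fell, Mertk rose and 3 did not pass, with a median log2 fold change of -0.48. Lyz2, the most abundant of them in the APAP libraries, stood at 7972, 8812 and 8567 CPM there, against 6747 CPM in the control. Transcripts of other liver and blood cells were present too. The 22 hepatocyte markers summed to 1570, 1863 and 2559 CPM in APAP Cxcr4+ cells, against 4140 CPM in control cells, and none was at 0 in any of the libraries. Most of that sum was Trf (transferrin), and the other 21 markers summed to 461, 347 and 682 CPM in the APAP libraries, against 1460 CPM in the control. Of these 22 genes 18 fell and 0 rose, with a median log2 fold change of -1.55. The 8 B cell markers summed to 392 to 588 CPM in the 3 APAP Cxcr4+ libraries and to 69.2 CPM in control macrophages, and all 8 rose. Among the other marker lists, 7 of 8 Kupffer cell genes fell (12498 to 15578 CPM in APAP libraries, 30952 CPM in the control), 2 of 5 neutrophil genes tested rose, and 2 of 8 sinusoidal endothelial genes rose while 2 fell. Further, 4 of 8 T and NK cell genes rose, 4 of 6 cholangiocyte genes tested rose, 2 of 8 stellate cell genes rose while 4 fell, and 0 of 4 erythroid genes tested changed. In bulk RNA, fewer cells of a type and less RNA per cell cannot be told apart.

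Expression of the conjugation enzymes was uneven: some of the most abundant members rose in APAP Cxcr4+ macrophages and others fell. Gstm1, Gstm3, Gstt2, Mgst1, Mgst2, Ugt1a6a and Ugt1a7c were higher, and Gsta4, Gstk1, Gstm5, Gstp1, Gstp2, Gstt1, Sult1a1, Sult4a1, Ugt2a3, Ugt2b1, Ugt2b36 and Ugt3a2 were lower. In numbers, 46 of the 56 members passed the filter on low counts, 7 of them rose (15.2%) and 12 fell (26.1%), by edgeR's quasi-likelihood test at a Benjamini-Hochberg adjusted p of 0.05 over 18715 genes. The same test called 25.4% of all genes higher, 18.9% lower and 44.3% in either direction, so the members' share of rises lay below the background and their share of falls somewhat above it. The median log2 fold change of the 46 members was -0.51, against 0.08 over all genes tested. Without the second APAP library 5 members rose and 8 fell, where 16.2% of all genes rose and 11% fell. Fold changes also followed transcript length, with a Spearman's rho of 0.22 across 18656 genes, which are not independent replicates. With that trend removed, 6 members rose and 10 fell, against 17.4% and 20.9% of all genes.

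**Figure D1:**
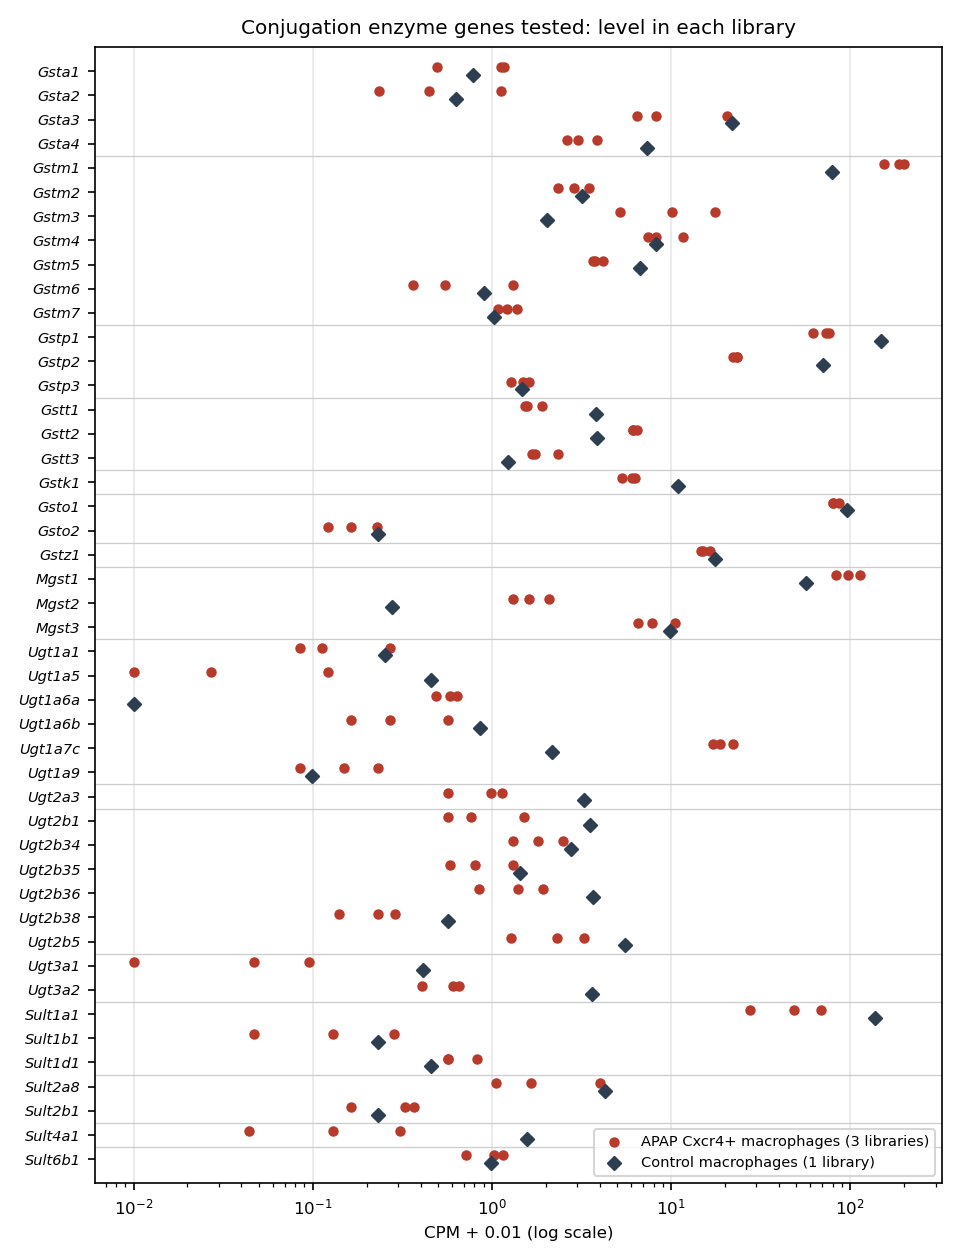
Level of each of the 46 tested members in CPM + 0.01 on a log axis, with 1 red point per APAP library and a dark diamond for the control library, and families divided by lines. Gstm1 at 154 to 198 CPM and Ugt1a7c at 17.1 to 22.1 CPM in the APAP libraries lie right of the control, and Gstp1, Gstp2 and Sult1a1 lie left of it.

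The control lay above all 3 APAP libraries for 24 of the 46 members and below all 3 for 10. Over all genes tested these shares were 39.2% and 45.7%. The third APAP library was the highest of the 3 for 23 members, where 34.5% of all genes had their highest APAP value in it. The hepatocyte markers had 21 of 22 in that state.

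**Figure D2:**
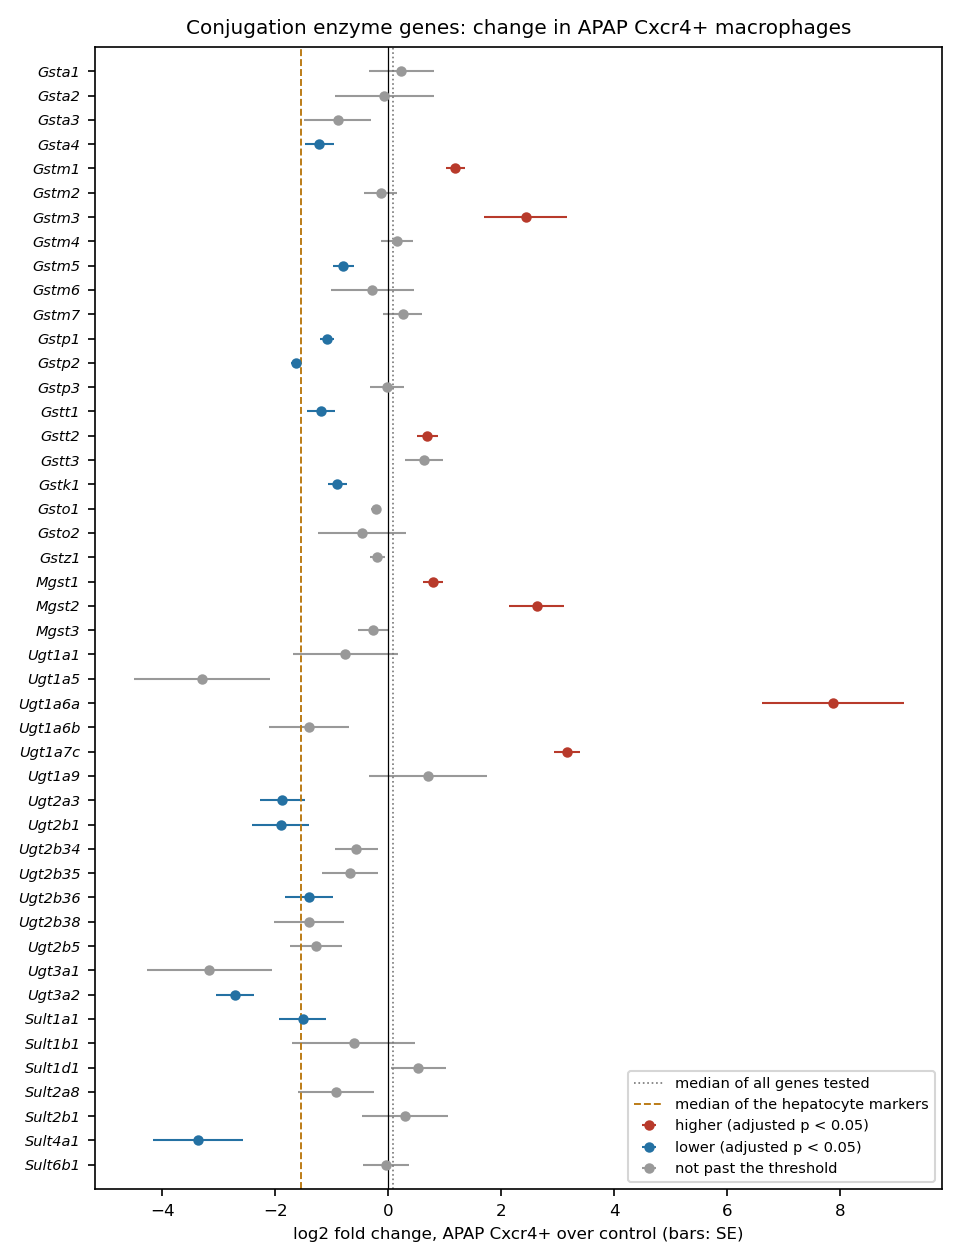
Log2 fold change of each tested member, APAP Cxcr4+ over control, with bars of 1 SE, coloured by the edgeR call. The dashed line is the median of the hepatocyte markers (-1.55) and the dotted line the median of all genes tested (0.08). The Ugt2 and Ugt3 genes all lie left of 0, and Ugt1a7c (3.16) and Ugt1a6a stand furthest to the right.

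Compared per kb of exon, the order of the most abundant members differed between the groups. In the APAP libraries Gstm1 stood at 122 ± 15.8 CPM per kb (SD, n = 3), above Mgst1 at 48.6 ± 7.3, Gstp1 at 45.7 ± 4.9, Gsto1 at 40.8 ± 1.7, Sult1a1 at 32.1 ± 13.8 and Gstp2 at 20.6 ± 0.52. Gstm1 was apart from the rest, while each neighbouring pair from Mgst1 down to Gstp2 overlapped between libraries. In the control the order was Gstp1 at 96.4 CPM per kb, Sult1a1 at 91.7, Gstp2 at 63.7, Gstm1 at 53.6, Gsto1 at 47.3 and Mgst1 at 28.1. Together these 6 genes made up 83.6% to 86.0% of the per-kb sum over all members in APAP Cxcr4+ macrophages, with 85.1% in the control library. Exon lengths come from the GENCODE M21 annotation, which belongs to another genome build than the counts.

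**Figure D3:**
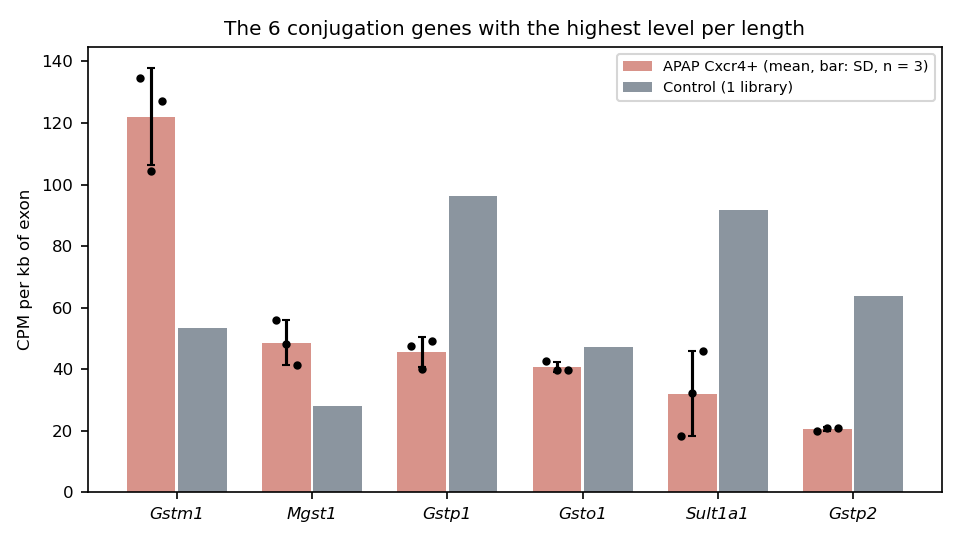
CPM per kb of exon for the 6 members with the highest APAP mean. Red bars are APAP means with SD and points are the 3 libraries, beside the single control library in grey. Gstm1 averaged 122 in the APAP libraries and stood at 53.6 in the control, and Gstp1 averaged 45.7 and stood at 96.4.

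The mu class glutathione S-transferases, cytosolic enzymes that detoxify electrophiles, held the most abundant member that rose. Gstm1 stood at 198, 154 and 187 CPM in APAP Cxcr4+ cells, against 78.9 CPM in control cells. Every APAP library exceeded the control, with a log2 difference of 1.19 (SE 0.17, adjusted p = 0.00376, edgeR quasi-likelihood). Gstm3, its neighbour on chromosome 3, had 10.1, 5.21 and 17.5 CPM in the 3 APAP Cxcr4+ libraries and 2.02 CPM in control macrophages. All APAP libraries lay above the control but spread 3.36-fold among themselves, and the log2 fold change was 2.43 (SE 0.73, adjusted p = 0.0402, and 0.13 with limma-voom). Gstm5 had 3.68, 4.17 and 3.77 CPM in APAP Cxcr4+ macrophages, with 6.72 CPM in the control library. All 3 APAP values were lower, with a fitted log2 difference of -0.79 (SE 0.19, adjusted p = 0.0195, 0.0581 without the second APAP library and 0.0808 with the length trend removed). The other members, Gstm2, Gstm4, Gstm6 and Gstm7, had log2 fold changes between -0.28 and 0.25 and did not pass. Of the Gstm1 transcript's windows of 50 bases, 18.9% also occur in another gene, and 28.8% of those of Gstm3, so some of their reads could have been split or dropped.

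The pi class fell. Gstp1 and Gstp2 encode near-identical enzymes, and mice that lack the Gstp genes are known to resist liver injury by APAP. Gstp1 had 73.7, 62.0 and 76.3 CPM in APAP Cxcr4+ cells, against 149 CPM in control cells. Each APAP library was far below the control, with a log2 difference of -1.08 (SE 0.13, adjusted p = 0.00245). Gstp2 had 22.3, 23.3 and 23.3 CPM in the 3 APAP Cxcr4+ libraries and 70.9 CPM in control macrophages, the tightest group of the called members, at -1.63 (SE 0.09, adjusted p = 0.000841). Gstp3 did not follow: it had 1.27, 1.60 and 1.48 CPM in APAP Cxcr4+ macrophages, with 1.47 CPM in the control library, within their range.

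Gstp1 and Gstp2 differ at 12 of 633 coding bases (98.1% identity), and 33.7% of the 50-base windows of Gstp1 transcripts and 54.3% of those of Gstp2 occur in another gene. How reads were divided between the pair is not given in the sources used here. The sum of the 3 Gstp genes, which does not depend on how reads were divided among them (though reads that were dropped are missing from it), was 97.3, 86.9 and 101 CPM in APAP Cxcr4+ cells, against 222 CPM in control cells. The coding stretch with the most differences is shown, though reads from other parts of the transcripts can be told apart too. It is the first 90 coding bases of each gene on chromosome 19 (longest reading frame in GENCODE M21 transcripts), 5′ to 3′, with the 6 differing bases in capitals.
Gstp1: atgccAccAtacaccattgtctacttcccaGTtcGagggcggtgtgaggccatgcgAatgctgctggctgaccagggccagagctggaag
Gstp2: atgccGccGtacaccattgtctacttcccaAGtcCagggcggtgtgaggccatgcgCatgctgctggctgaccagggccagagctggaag

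The membrane-bound enzymes Mgst1 and Mgst2 rose. Mgst1, which reduces lipid peroxides at the endoplasmic reticulum and the outer mitochondrial membrane, stood at 113, 96.7 and 83.6 CPM in the 3 APAP Cxcr4+ libraries and at 56.5 CPM in control macrophages. The groups did not overlap, and the log2 fold change was 0.79 (SE 0.18, adjusted p = 0.0167, and 0.0564 without the second APAP library). Mgst2, an enzyme that can form leukotriene C4 outside blood cells, had 81, 112 and 76 counts in APAP Cxcr4+ macrophages, with 12 counts in the control library (95% exact Poisson interval 6.20 to 21.0, counting error only). In CPM these were 1.61, 2.09 and 1.30 in APAP Cxcr4+ cells, against 0.267 in control cells, a log2 difference of 2.63 (SE 0.48, adjusted p = 0.00878). Mgst3, with 10.5, 7.82 and 6.55 CPM in the 3 APAP Cxcr4+ libraries and 9.92 CPM in control macrophages, did not pass (-0.26, SE 0.27).

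Among the alpha, kappa, omega, theta and zeta classes 3 genes fell and 1 rose. Gsta4, known for conjugating the lipid peroxidation product hydroxynonenal, had 3.0, 2.62 and 3.84 CPM in APAP Cxcr4+ macrophages, with 7.34 CPM in the control library (-1.22, SE 0.25, adjusted p = 0.0128). The mitochondrial and peroxisomal Gstk1 had 6.01, 6.27 and 5.34 CPM in APAP Cxcr4+ cells, against 10.9 CPM in control cells (-0.90, SE 0.17, adjusted p = 0.00963). For both genes the 3 APAP values lay below the control. In the theta class, Gstt1 and Gstt2 moved apart. Gstt1 had 1.55, 1.53 and 1.89 CPM in the 3 APAP Cxcr4+ libraries and 3.78 CPM in control macrophages (-1.19, SE 0.25, adjusted p = 0.0139), and Gstt2 had 6.49, 6.14 and 6.16 CPM in APAP Cxcr4+ macrophages, with 3.87 CPM in the control library (0.69, SE 0.18, adjusted p = 0.028). Neither call held without the second APAP library (adjusted p = 0.0542 for Gstt1 and 0.0895 for Gstt2), and that of Gstt2 was 0.0508 with the length trend removed.

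The abundant omega class gene Gsto1, a thiol transferase, had 86.4, 80.4 and 80.6 CPM in APAP Cxcr4+ cells, against 95.8 CPM in control cells. The control was the highest value, but the difference of -0.22 (SE 0.09, adjusted p = 0.103) did not pass, and it did without the first APAP library (-0.25, adjusted p = 0.0242). Gstz1, the maleylacetoacetate isomerase of tyrosine breakdown, had 15.1, 14.8 and 16.5 CPM in the 3 APAP Cxcr4+ libraries and 17.7 CPM in control macrophages (-0.19, SE 0.13, adjusted p = 0.269). It passed, lower, only with the length trend removed (-0.44, adjusted p = 0.0447). Gsta3, an alpha class enzyme abundant in mouse hepatocytes, had 8.24, 6.44 and 20.6 CPM in APAP Cxcr4+ macrophages, with 21.9 CPM in the control library. The third APAP library stood close to the control and apart from the other two, and the value of -0.90 (SE 0.60, adjusted p = 0.261) became -1.56 (adjusted p = 0.000371) without that library. Gsta1, Gsta2, Gsto2 and Gstt3 did not pass, and Gstt4 had 0 counts in all libraries.

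The Ugt1a genes lie at a single locus, where each has its own promoter and first exon and all share the last exons. Ugt1a7c rose most among the members with reads in every library. It stood at 22.1, 18.7 and 17.1 CPM in APAP Cxcr4+ cells, against 2.16 CPM in control cells, from 1113, 1007 and 1004 counts in the 3 APAP Cxcr4+ libraries and 97 in control macrophages. All APAP libraries were several times above the control, with a log2 difference of 3.16 (SE 0.23, adjusted p = 0.00107). Ugt1a6a, whose product is known in rodents for conjugating small phenols including APAP, had 24, 31 and 37 counts in APAP Cxcr4+ macrophages, with 0 in the control library. Against a floor of 3 counts in the control library it was at least 8.42-fold higher (adjusted p = 0.00552).

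Other genes of the locus had few reads. Ugt1a1, the bilirubin-conjugating form, had 13, 4 and 6 counts in APAP Cxcr4+ cells, against 11 in control cells. Ugt1a6b had 28, 14 and 9 counts in the 3 APAP Cxcr4+ libraries and 38 in control macrophages (adjusted p = 0.156), Ugt1a5 had 0, 6 and 1 in APAP Cxcr4+ macrophages, with 20 in the control library (adjusted p = 0.0709), and Ugt1a9 had 7, 4 and 13 in APAP Cxcr4+ cells, against 4 in control cells. None of these 4 passed. Ugt1a2 had 2 counts in a single APAP library, and Ugt1a10 had 0 counts in all 4 libraries although 63.0% of its 50-base windows occur in another gene. Reads from the shared exons were thus not counted to every gene of the locus, and the level of Ugt1a7c rests on an unknown part of its transcript. Between 52.1% and 79.8% of the windows of the 8 genes are shared, so the split of reads among Ugt1a6a, Ugt1a6b and Ugt1a7c is uncertain. The sum of all 8 genes was 23.6, 19.8 and 18.3 CPM in the 3 APAP Cxcr4+ libraries and 3.78 CPM in control macrophages. Most of that sum was Ugt1a7c, so it does not show the level of Ugt1a6a.

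**Figure D4:**
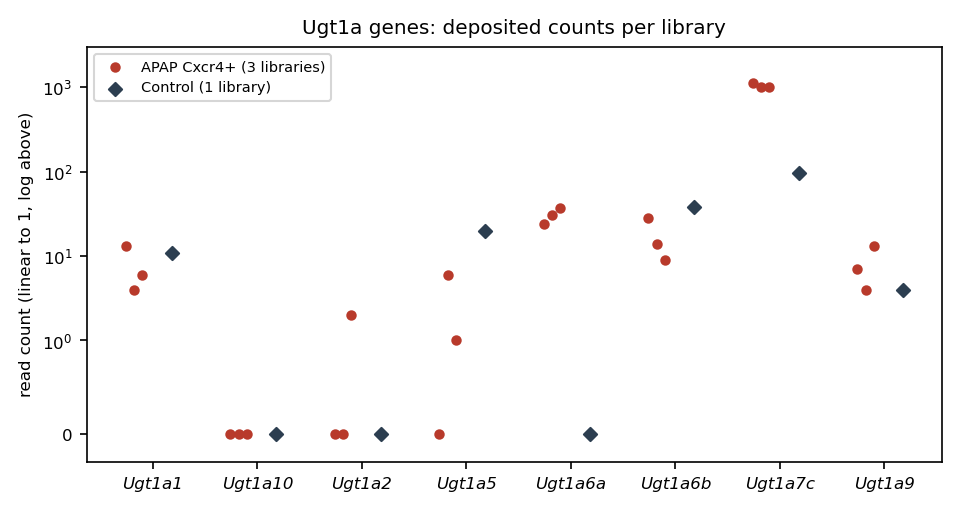
Deposited read counts of the 8 Ugt1a genes, on an axis that is linear up to 1 and logarithmic above, with red points for the 3 APAP libraries and a dark diamond for the control library. Ugt1a7c has 1004 to 1113 counts in APAP Cxcr4+ macrophages, with 97 in the control library, and Ugt1a6a has 24 to 37 counts in APAP Cxcr4+ cells, against 0 in control cells.

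The joint between the own and the shared part is printed to show what sets these genes apart. Each line gives 60 coding bases on chromosome 1 (GENCODE M21 transcripts), 5′ to 3′, with the 30 bases of the shared part in capitals. The shared part is the run of identical bases at the end of all 4 coding sequences, 740 bases long. It was not taken from exon boundaries, so the joint shown may lie some bases from the exon joint. The own part before it measures 856 bases in Ugt1a7c and Ugt1a6a, 847 in Ugt1a9 and 868 in Ugt1a1.
Ugt1a7c: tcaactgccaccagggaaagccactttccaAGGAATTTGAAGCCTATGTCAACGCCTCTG
Ugt1a6a: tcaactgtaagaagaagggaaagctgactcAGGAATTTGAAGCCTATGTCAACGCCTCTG
Ugt1a9: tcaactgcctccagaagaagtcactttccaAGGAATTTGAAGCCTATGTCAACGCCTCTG
Ugt1a1: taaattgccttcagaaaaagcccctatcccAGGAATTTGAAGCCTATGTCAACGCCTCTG

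The Ugt2 and Ugt3 genes, known mainly for conjugating steroids, bile acids and drugs in hepatocytes, were at low levels, and those called were lower. Ugt2b1 had 0.756, 0.558 and 1.5 CPM in the 3 APAP Cxcr4+ libraries and 3.54 CPM in control macrophages (-1.90, SE 0.51, adjusted p = 0.0287). Ugt2b36 had 1.93, 0.838 and 1.38 CPM in APAP Cxcr4+ macrophages, with 3.65 CPM in the control library (-1.40, SE 0.43, adjusted p = 0.0441). Both calls were lost without the second APAP library (adjusted p = 0.0611 for Ugt2b1 and 0.0672 for Ugt2b36), and that of Ugt2b36 with the length trend removed (0.0763). Ugt2a3 had 0.975, 0.558 and 1.13 CPM in APAP Cxcr4+ cells, against 3.27 CPM in control cells (-1.88, SE 0.40, adjusted p = 0.0138).

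Ugt3a2, an enzyme that in humans uses other sugars than glucuronic acid, had 20, 32 and 38 counts in the 3 APAP Cxcr4+ libraries and 162 in control macrophages. In CPM these were 0.398, 0.596 and 0.648 in APAP Cxcr4+ macrophages, with 3.6 in the control library, the clearest fall of the Ugt genes (-2.71, SE 0.34, adjusted p = 0.00274). Ugt2b5, the Ugt2b gene with the most CPM, had 2.29, 1.27 and 3.26 CPM in APAP Cxcr4+ cells, against 5.54 CPM in control cells. It did not pass (-1.28, SE 0.46, adjusted p = 0.0677), but did without the third APAP library (-1.63, adjusted p = 0.00618), with no count filter, with DESeq2 and with limma-voom (adjusted p = 0.0493, 0.0356 and 0.0497). Ugt2b34, Ugt2b35, Ugt2b38 and Ugt3a1 did not pass, with log2 fold changes of -3.17 to -0.56, and Ugt2b37 had 1 count, in the control. For all 9 tested Ugt2 and Ugt3 genes the control exceeded every APAP library.

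Sulphotransferases were led by Sult1a1, a phenol sulphotransferase whose human counterpart sulphates APAP. It had 27.5, 48.5 and 69.1 CPM in the 3 APAP Cxcr4+ libraries and 138 CPM in control macrophages. All 3 APAP values lay below the control and spread 2.52-fold among themselves, with a log2 difference of -1.51 (SE 0.42, adjusted p = 0.0315). The call was lost without the second APAP library (adjusted p = 0.0852), with DESeq2 (0.0691) and with the length trend removed (0.0638). Sult4a1, known from neurons, had 6, 16 and 2 counts in APAP Cxcr4+ macrophages, with 70 in the control library (-3.36, SE 0.80, adjusted p = 0.0199).

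Sult2a8, a bile acid sulphotransferase of mouse liver, had 1.65, 1.04 and 3.99 CPM in APAP Cxcr4+ cells, against 4.25 CPM in control cells. It did not pass (-0.92, SE 0.67, adjusted p = 0.295), and without the third APAP library, its highest, the value was -1.64 (adjusted p = 0.00552). Sult6b1 had 1.01, 0.707 and 1.14 CPM in the 3 APAP Cxcr4+ libraries and 0.979 CPM in control macrophages, within their range. Sult1b1, Sult1d1 and Sult2b1 were at 0.445 CPM or less in the control and did not pass. The estrogen sulphotransferase Sult1e1 and Sult1c1, Sult1c2, Sult5a1 and Sult6b2 had 0 to 4 counts in each APAP library. They had 0 in the control, where the floor of 3 counts is 0.0668 CPM. Sult2a7 had 0 counts in all libraries.

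For 19 of 22 hepatocyte markers the second APAP library was lowest, followed by the first, the third and the control. This order held for 11 of the 46 members and for 1137 of all 18715 genes tested (6.08%). It requires the control to be highest, which held for 24 of the 46 members, all 12 that fell and 7330 of all genes. The share of 6.08% is therefore no background for genes already known to be highest in the control. Among the 12 members that fell, this order held for 5 (Gsta4, Gstp1, Gstt1, Ugt2a3 and Ugt2b1) and not for Gstk1, Gstm5, Gstp2, Sult1a1, Sult4a1, Ugt2b36 and Ugt3a2. The other 6 with this order (Gsta3, Gstz1, Sult2a8, Ugt2b34, Ugt2b35 and Ugt2b5) did not pass the test. Median log2 ratios to the control (CPM + 0.1) were -1.24, -2.0 and -1.18 for the 9 Ugt2 and Ugt3 genes in the first, the second and the third APAP library, and -1.82, -2.30 and -0.95 for the hepatocyte markers. Sult1a1 was lowest in the first APAP library, and Gstp2 hardly varied among the 3. From the first to the third APAP library Sult1a1 increased, with the control highest. The Kupffer cell genes Clec4f, Vsig4, Timd4, Folr2, Clec1b and Cdh5 had this order too, while Cd5l and Marco did not. The order was not particular to Kupffer cell genes. Among others, the macrophage markers Adgre1, Csf1r, Fcgr1 and Cd14 and the endothelial markers Stab2 and Pecam1 had it. So did the hepatocyte markers Trf and Cyp2e1 and the member Ugt3a2. How many of all genes have it was not computed. The part of hepatocyte RNA in these results was not tested. Gstm1, Gstm3, Mgst1 and Ugt1a7c were higher in each APAP library than in the control.

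**Figure D5:**
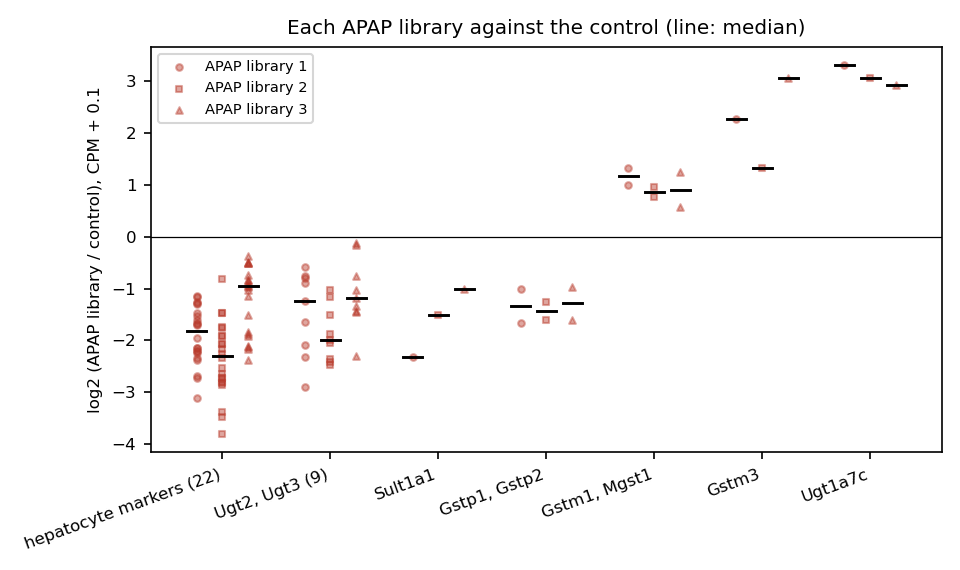
Log2 ratio of each APAP library to the control, from CPM + 0.1, for the 22 hepatocyte markers, the 9 tested Ugt2 and Ugt3 genes and single members. Points are genes, shapes are the 3 APAP libraries and black lines are medians. The hepatocyte markers have medians of -1.82, -2.30 and -0.95, and Ugt1a7c, Gstm3, Gstm1 and Mgst1 lie above 0 in each APAP library.

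Genes that supply, export or regulate conjugation were followed as 8 lists with 70 genes in the table, of which 66 were tested, 15 rose (22.7%) and 16 fell (24.2%), near the 25.4% and 18.9% of all genes. With the length trend removed 8 rose and 19 fell, where 17.4% and 20.9% of all genes did. Without the second APAP library 9 rose and 6 fell, where 16.2% and 11% of all genes did. Few genes on the glutathione supply list, which is wider than synthesis, passed the test. Of 9 tested, Gclm, the modifier subunit of the rate-limiting ligase, rose (0.80, SE 0.23, adjusted p = 0.0375). The mitochondrial glutathione carrier Slc25a39 fell (-0.78, SE 0.10, adjusted p = 0.00274). The Gclm call was lost with the length trend removed (adjusted p = 0.181) and without the second APAP library (0.097). The catalytic subunit Gclc, at 61.0, 56.0 and 59.5 CPM in APAP Cxcr4+ macrophages, with 48.8 CPM in the control library, did not pass (adjusted p = 0.0685). Slc7a11 had the largest log2 fold change on the list but spread widely and did not pass (2.98, SE 1.16, adjusted p = 0.0826). It had 7.84, 3.07 and 1.30 CPM in the APAP libraries, against 0.512 CPM in the control.

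Genes that process glutathione conjugates to mercapturates had 3 rises and 5 falls among 9 tested. Anpep, an aminopeptidase that trims peptides at the cell surface, had 136, 63.6 and 66.3 CPM in APAP Cxcr4+ cells, against 8.17 CPM in control cells (3.44, SE 0.57, adjusted p = 0.0061). The dipeptidase gene Dpep2 and the gamma-glutamyl transferase gene Ggt1 had 0 counts in the control. Set against a floor of 3 counts there, which is not a firm bound, their APAP means were 14.8-fold and 8.75-fold higher (adjusted p = 0.00771 and 0.0257). The Ggt1 call was lost without the second APAP library (adjusted p = 0.0547) and with limma-voom (0.0611). The aminoacylase gene Acy1 fell (-1.55, SE 0.17, adjusted p = 0.00197), and so did Ggt5, Nat8, Nat8f1 and Acy3. Without the second APAP library the calls of Nat8, Nat8f1 and Acy3 were lost (adjusted p = 0.0731, 0.0594 and 0.0779), and that of Acy3 also with the length trend removed (0.0724).

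Supply of the sugar and sulphate donors was mixed. Of 5 glucuronate genes tested, Ugp2, which makes UDP-glucose, fell (-0.40, SE 0.11, adjusted p = 0.0332), as did the nucleotide sugar transporter Slc35d2 (-0.69, adjusted p = 0.0126). Both calls were lost without the second APAP library (adjusted p = 0.118 for Ugp2 and 0.0585 for Slc35d2), and that of Ugp2 also without the third (0.0604) and with the length trend removed (0.0528). Ugdh, which oxidises UDP-glucose to the glucuronate donor, did not pass (0.43, adjusted p = 0.054). Among 9 sulphate genes 4 rose and 2 fell. The sulphate carriers Slc26a11 (1.10, SE 0.12, adjusted p = 0.00209) and Slc26a2 (0.73, SE 0.09, adjusted p = 0.00307) rose, but Slc26a2 was at -0.033 with the length trend removed (adjusted p = 0.79). Papss1, a synthetase of the sulphate donor, did not pass (-0.15, adjusted p = 0.267), and the nucleotidase gene Bpnt1 fell (-0.60, SE 0.13, adjusted p = 0.0139, and 0.0506 without the second APAP library).

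The conjugate exporters Abcc5 (1.20, SE 0.12, adjusted p = 0.00169) and Abcc1 (0.48, SE 0.12, adjusted p = 0.0217) were the 2 of 8 genes on the export list that rose, and 0 fell. Abcc3, the most abundant of the 8, had 803, 962 and 911 CPM in the APAP libraries, against 1070 CPM in the control. It did not pass (-0.26, SE 0.13, adjusted p = 0.152). The 8 genes summed to 1170, 1322 and 1233 CPM in the APAP libraries, against 1298 CPM in the control. The value of Abcc1 turned to -0.39 with the length trend removed (adjusted p = 0.0412), and its call was lost without the second APAP library (adjusted p = 0.087). Of 4 genes that cleave conjugates or serve the cleaving enzymes, the sulphatase Arsb rose (0.72, adjusted p = 0.0309) and the sulphatase activator Sumf1 fell (-0.28, adjusted p = 0.0453), each lost without the second APAP library (0.0724 for Arsb and 0.17 for Sumf1). Arsb was also lost with the length trend removed (0.37, adjusted p = 0.172). Sumf1 was also lost with DESeq2 size factors, the length trend removed, limma-voom, the DESeq2 Wald test, no count filter and without the third APAP library (adjusted p = 0.0502 to 0.138). The lysosomal beta-glucuronidase gene Gusb did not pass (0.33, adjusted p = 0.19).

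Relatives of the glutathione S-transferases, among them enzymes that make lipid mediators, had 2 rises and 4 falls among 11 tested. Hpgds, the sigma class enzyme that makes prostaglandin D, had 155, 146 and 139 CPM in the 3 APAP Cxcr4+ libraries and 34.1 CPM in control macrophages (2.10, SE 0.11, adjusted p = 0.000841). Ltc4s, the leukotriene C4 synthase of the membrane-bound family, had 1.77, 1.86 and 2.97 CPM in APAP Cxcr4+ macrophages, with 20.6 CPM in the control library (-3.22, SE 0.29, adjusted p = 0.00129). In both genes the APAP libraries lay close together and far from the control. The chloride channel protein gene Clic1 (-0.72, SE 0.09, adjusted p = 0.00301) and Ptges2 (-0.97, SE 0.13, adjusted p = 0.00366) fell as well.

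Among 11 regulators tested, 2 rose and 1 fell. Ahr, the aryl hydrocarbon receptor that drives several conjugation genes, had 12.1, 14.3 and 14.7 CPM in APAP Cxcr4+ cells, against 4.07 CPM in control cells (1.75, SE 0.20, adjusted p = 0.0021). Bach1, a repressor at antioxidant response elements, rose by 1.09 on the log2 scale (SE 0.16, adjusted p = 0.00433). Nfe2l2, which encodes the activator NRF2 of those elements, fell by 0.37 (SE 0.08, adjusted p = 0.0167, and 0.0956 without the second APAP library). The hepatocyte factor Hnf4a had 8.98, 3.31 and 14.4 CPM in the 3 APAP Cxcr4+ libraries and 10.7 CPM in control macrophages, within their range.

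Promoter sequence was searched for the cores to which these regulators bind, TGACNNNGC for the antioxidant response element and GCGTG for the AHR element, on both strands of the 250 bases before each start in RefSeq (GRCm38.p6). The cores can share letters where GC ends the first and begins the second. The 50 members found in that table have 62 promoters, of which 4 held the antioxidant core and 11 the AHR core. Over all 32851 promoters the shares were 10.2% and 28.2%. Counted by gene, the antioxidant core was present in 1 of 6 risen and 1 of 9 fallen members with a promoter, and the AHR core in 1 of 6 and 2 of 9. Promoters of Gstm1, Mgst1 and Gstp1 are printed with these cores in capitals, 5′ to 3′ towards the start. These genes had the highest mean levels per kb of exon in the APAP libraries. Gstm1 and Mgst1 each have a second start in the table, whose promoter is not shown.
Gstm1, chr3:108017819-108018068, minus strand: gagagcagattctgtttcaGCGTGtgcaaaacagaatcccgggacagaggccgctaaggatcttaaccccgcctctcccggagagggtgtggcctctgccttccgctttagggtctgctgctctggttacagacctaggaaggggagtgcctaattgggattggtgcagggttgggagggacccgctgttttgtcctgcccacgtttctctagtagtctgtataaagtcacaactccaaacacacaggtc
Mgst1, chr6:138140277-138140526, plus strand: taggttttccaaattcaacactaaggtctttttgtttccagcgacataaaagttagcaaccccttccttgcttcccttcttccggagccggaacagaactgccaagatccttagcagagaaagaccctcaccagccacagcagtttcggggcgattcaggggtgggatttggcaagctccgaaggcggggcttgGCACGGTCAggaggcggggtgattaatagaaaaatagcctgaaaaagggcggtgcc
Gstp1, chr19:4037913-4038162, minus strand: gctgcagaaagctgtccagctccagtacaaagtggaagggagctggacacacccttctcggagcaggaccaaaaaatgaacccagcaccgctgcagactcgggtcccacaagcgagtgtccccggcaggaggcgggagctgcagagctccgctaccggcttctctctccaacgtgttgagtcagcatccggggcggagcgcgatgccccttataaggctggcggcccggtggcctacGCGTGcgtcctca

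In these letters, the Mgst1 promoter holds 1 antioxidant core, on the opposite strand, and the Gstm1 and Gstp1 promoters hold 1 AHR core each. A match describes the letters in this window and is not a measured binding site.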

How the data were processed

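Poly(A) RNA-seq libraries of 4 samples were used (3 APAP Cxcr4+ and 1 control). The deposited values are whole-number read counts per Ensembl gene, made by the authors with HISAT2 and Subread on mm39, per the submitters' processing notes. Versions, annotation, strand setting and the handling of shared reads: not given in the sources used here. Of counts between 1 and 10, 67.4% to 68.1% were even in APAP libraries, against 74.1% in the control, so intervals and floors, which take each count as independent, cover counting error only and are too narrow.

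Symbols came from GENCODE M21 and RefSeq tables (28926 of 29247 IDs). Counts were fitted in edgeR 4.0.16 (R 4.3.3): filterByExpr (minimum count 10, total 15), TMM scaling, quasi-likelihood F test of APAP_Cxcr4 over Control without covariates, Benjamini-Hochberg adjustment over 18715 genes. With 1 control, the spread comes from the APAP libraries (2 residual degrees of freedom, 3.80 prior), with the control taken to vary alike. SE is the log2 fold change divided by the root of F. Transcript overlap used 50-base windows.

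Members, lists and alternatives (DESeq2 1.42.0, limma 3.58.1 voom, other scalings and filters, glmTreat, a length correction, leaving out each APAP library) were chosen with earlier results of these data known. Values by library are given for called members and the most abundant member of each family. Of the partner lists, the first gene and up to 3 called genes with the smallest p are named; others named were chosen after their values were seen. Sts was not analysed here.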

Additional observations from a re-analysis of the deposited data

How the results depend on the processing

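The 7 rises and 12 falls of conjugation enzyme genes were 7 and 12 with DESeq2 size factors, upper-quartile factors, the DESeq2 Wald test or hepatocyte markers and members left out of the scaling. They were 6 and 15 with limma-voom, where 22.1% of all genes rose and 19.5% fell. With no count filter they were 7 and 13, where 18% and 12.3% of all genes did. A filter of 5 CPM, which tests 16 members, left 5 rises and 6 falls, where 28.3% and 27% of all genes rose and fell. Tested against a log2 fold change of 1 with glmTreat, 2 members rose (Ugt1a6a, Ugt1a7c) and 2 fell (Gstp2, Ugt3a2), and 4 partner genes rose and 2 fell, where 5.87% of all genes rose and 1.5% fell. With the length trend removed 8 partner genes rose, against 15, and the median of all genes moved to -0.05, against 0.08. The values of Slc26a2 (-0.033), Impad1 (-0.0082) and Abcc1 (-0.39) then turned negative, and all genes split into 3239 higher and 3902 lower, against 4758 and 3537. The cause was not tested. Without 1 APAP library, 5 to 7 members rose and 8 to 16 fell (median -0.81 to -0.24), and 9 to 21 partner genes rose and 6 to 21 fell. Of all genes, 28.1% rose and 22.7% fell without the first APAP library. These shares were 16.2% and 11% without the second, and 26.1% and 19.2% without the third. The count over all genes was 5001 without the second APAP library, against 8295. No paired analysis was possible because there is 1 control library and the columns carry no replicate numbers. Depth limits members with few reads, such as the Sult and Ugt1a genes under 20 counts.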
